A study of Mus musculus with 14 samples.

Results

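Alx1, Alx4, Prrx1, Prrx2 and Shox2, 5 genes of the paired-type homeobox class, were followed in cell populations sorted from mouse forelimb buds. They were taken by symbol from a table of 24454 genes, and all 5 passed the filter on low counts that left 15125 genes for testing. The cells came from forelimb buds of embryos that carry EGFP in the Sox9 locus (Sox9 IRES-EGFP), kept on a mixed Swiss Albino background, and buds were pooled for each sort. All sorts excluded dead cells (7AAD) and cells with CD31, Ter119, CD45, EpCam, Gr1 or CD11b on their surface. Limb bud mesenchymal progenitors (LMPs) without EGFP were sorted at E10.5 as S9-JAG1+ LMPs (JAG1+ and SCA-1-, 3 libraries) and as S9-Pαhi LMPs (JAG1-, SCA-1- and high for PDGFRα, 3 libraries). S9-SCA-1+ cells (without EGFP, JAG1-, 2 libraries with replicate numbers 2 and 3) and S9+Pαhi osteo-chondrogenic progenitors (OCPs, with EGFP and high PDGFRα, 3 libraries) were sorted at the same stage. S9+PαhiCol2a1+ chondroblasts (3 libraries) came from E11.5 alone, so that stage and population cannot be told apart for them, and the label gives them the same gate as the OCPs.

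The products of these genes are transcription factors that bind DNA through a homeodomain of the paired type, alone or as dimers. Prrx1 and Prrx2 are general genes of limb and craniofacial mesenchyme, and mice without both have severe limb skeletal defects. Shox2, a relative of the human short stature gene, is needed for the proximal limb skeleton. Alx4 acts in the anterior limb bud, where its loss lets extra digits form on the thumb side, and Alx1 is best known from craniofacial mesenchyme.

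The homeobox, the stretch of the coding sequence for the homeodomain, is the feature that unites these genes, and its letters show how far the members have diverged. In each gene it comprises 180 bases split over 2 coding exons (GRCm38, GENCODE transcripts). It lies at chr10:103022264-103025272 on the minus strand in Alx1, at chr2:93668528-93675337 on the plus strand in Alx4 and at chr1:163257901-163261977 on the minus strand in Prrx1. In Prrx2 it lies at chr2:30878454-30879533 on the plus strand and in Shox2 at chr3:66975869-66978323 on the minus strand. The coding strand is given 5′ to 3′, and capitals mark bases that differ from Prrx1.
Prrx1: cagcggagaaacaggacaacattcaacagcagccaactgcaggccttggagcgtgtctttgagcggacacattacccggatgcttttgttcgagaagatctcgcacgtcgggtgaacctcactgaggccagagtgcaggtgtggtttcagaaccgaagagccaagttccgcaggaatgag
Prrx2: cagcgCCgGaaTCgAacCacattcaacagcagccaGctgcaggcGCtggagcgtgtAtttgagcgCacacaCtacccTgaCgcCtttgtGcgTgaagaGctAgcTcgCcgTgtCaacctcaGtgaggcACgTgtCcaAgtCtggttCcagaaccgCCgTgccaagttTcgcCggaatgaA
Alx4: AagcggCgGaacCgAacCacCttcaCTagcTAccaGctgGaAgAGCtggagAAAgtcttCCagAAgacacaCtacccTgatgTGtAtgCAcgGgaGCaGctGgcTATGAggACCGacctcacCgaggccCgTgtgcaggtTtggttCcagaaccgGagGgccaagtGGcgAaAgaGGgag
Alx1: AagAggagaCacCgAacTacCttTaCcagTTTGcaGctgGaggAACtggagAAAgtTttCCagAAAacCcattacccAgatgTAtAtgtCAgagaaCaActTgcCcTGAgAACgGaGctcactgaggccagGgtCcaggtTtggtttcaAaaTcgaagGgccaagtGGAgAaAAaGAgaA
Shox2: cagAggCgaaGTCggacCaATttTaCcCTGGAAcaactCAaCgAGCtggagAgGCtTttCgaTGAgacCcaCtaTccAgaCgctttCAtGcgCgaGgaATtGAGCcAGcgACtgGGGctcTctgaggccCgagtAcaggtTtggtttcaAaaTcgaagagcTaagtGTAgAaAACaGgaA
Prrx2 differed from Prrx1 at 38 bases, Alx4 at 58, Alx1 at 61 and Shox2 at 69. The closest pairs were Prrx1 and Prrx2, with 78.9% identical bases, and Alx1 and Alx4, with 76.7%, whereas the other 8 pairs shared 59.4% to 69.4%. The longest run of identical bases in any pair was 23 bases, between Alx1 and Shox2. No member shared a run of 50 bases, the length of the reads, with another member over its annotated transcripts, and at most 3.29% of such runs of a member, those of Alx1, occurred in another gene. Reads can however be shared with overlapping genes: exons of Alx1 overlap those of the non-coding Gm17028 on the same strand over 243 bases, and exons of Shox2 overlap those of Rsrc1 on the other strand over 153 bases.

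Total counts ranged from 20316583 to 29162751 per library, and a floor of 3 counts corresponds to 0.101 to 0.149 CPM. CPM, the level used here, are counts relative to the TMM-scaled library total. The lowest value of any member was 28 counts, for Alx1 in chondroblast replicate 3. The sort genes followed the gates only in part. Pdgfra ranged from 667 to 950 CPM in OCPs and chondroblasts, from 360 to 530 CPM in S9-Pαhi LMPs, from 246 to 248 CPM in S9-JAG1+ LMPs and was only 24.0 to 44.8 CPM in S9-SCA-1+ cells, which the study sorted from cells with PDGFRα on their surface. Sox9 had 411 to 625 CPM in OCPs and chondroblasts and 7.41 to 65.5 CPM in the populations without EGFP. Jag1 had 228 to 364 CPM in S9-JAG1+ LMPs, but also 102 to 137 CPM in chondroblasts, beside 10.53 to 21.3 CPM in the other populations. Ly6a, which codes for SCA-1, reached only 3.10 and 3.36 CPM in S9-SCA-1+ cells. The 8 myoblast genes summed to 1867 and 1915 CPM in S9-SCA-1+ cells and to 4.28 to 127 CPM elsewhere. Red blood cell genes summed to 2629 CPM in S9-SCA-1+ replicate 3 and to 0.833 to 94.6 CPM in the other libraries. The 3 leukocyte genes, Ptprc included, summed to at most 0.641 CPM, the 4 endothelial genes to at most 14.96 CPM, the 5 ectodermal genes to at most 10.2 CPM and the 3 neural crest and glia genes to at most 16.7 CPM. In libraries of sorted cells, fewer cells that express a gene and less RNA per cell cannot be told apart.

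The members were lowest in S9-SCA-1+ cells, and 4 of them were highest in S9-Pαhi LMPs, whereas Shox2 was highest in OCPs. Calls required an adjusted p no higher than 0.1 (edgeR quasi-likelihood test, Benjamini-Hochberg over all tested genes) together with a log2 fold change of 1.2 or more in size. Against the mean of the other 4 populations, 5 of 5 members were called higher in S9-Pαhi LMPs, where 1.53% of all tested genes were called higher. All 5 were called lower in S9-SCA-1+ cells, beside 6.8% of all tested genes. Shox2 was the single member called in OCPs, where it was higher (3.37% of all genes), and in S9-JAG1+ LMPs, where it was lower (7.7% of all genes). In chondroblasts no member was called, where 12.7% of all genes were called in either direction. In all, 12 of 25 differences from the other populations were called, beside 8.68% over all genes. Without the fold limit 21 of 25 had an adjusted p of at most 0.1, beside 41.1% over all genes. Among them were 4 members in S9-JAG1+ LMPs (49.9% of all genes), 3 in OCPs (28.5%) and 4 in chondroblasts (65%). The median log2 fold change of the members was 1.65 in S9-Pαhi LMPs and -1.98 in S9-SCA-1+ cells, where the medians over all tested genes were -0.0071 and -0.013. With S9-SCA-1+ cells left out of the average, 3 of 5 members were called higher in S9-Pαhi LMPs (1.12% of all genes), namely Alx1, Alx4 and Prrx2. In the same comparison Alx4, Prrx1 and Shox2 were called lower in S9-JAG1+ LMPs (9.26% of all genes), Shox2 higher in OCPs (2.69%) and Alx1 lower in chondroblasts (1.36%). The call of Alx1 lay at the fold limit (-1.201 ± 0.32). Chondroblast replicate 3 had 1.10 CPM of it, beside 4.57 and 4.35 CPM in replicates 1 and 2. With the E11.5 chondroblasts left out instead, 5 of 5 members were again called higher in S9-Pαhi LMPs (2.16% of all genes) and lower in S9-SCA-1+ cells (5.47% of all genes), and Shox2 again lower in S9-JAG1+ LMPs (5.64%) and higher in OCPs (6.17%).

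**Figure D1:**
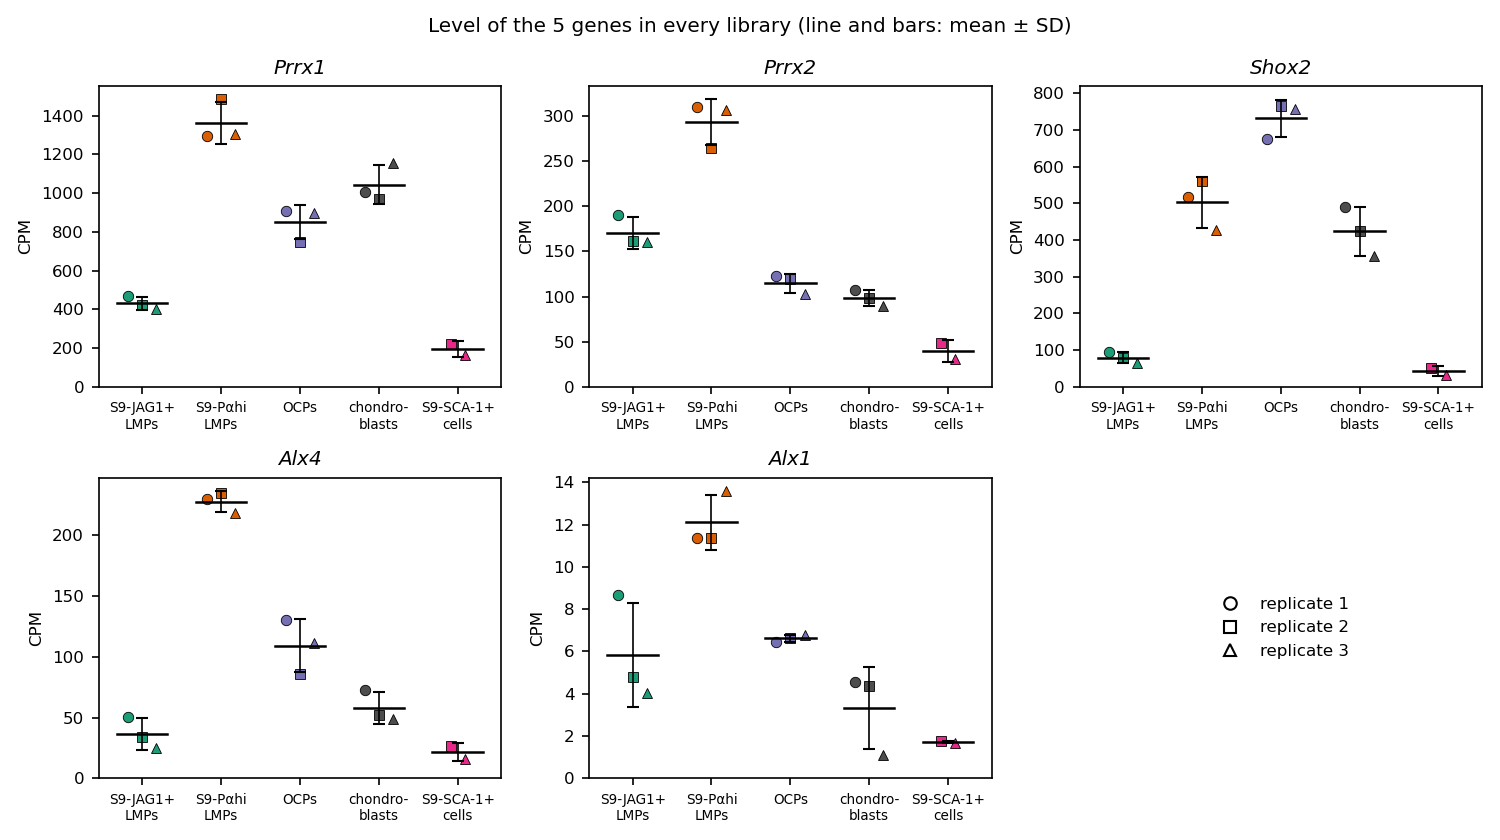
Level of Prrx1, Prrx2, Shox2, Alx4 and Alx1 (y axis, CPM, from 0) in each of the 14 libraries, by population (x axis); symbols are replicates, lines and bars mean ± SD. The S9-Pαhi LMPs sit highest in every panel except that of Shox2, where OCPs do, and the S9-SCA-1+ libraries lie lowest except for chondroblast replicate 3 of Alx1 and S9-JAG1+ replicate 3 of Alx4.

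**Figure D2:**
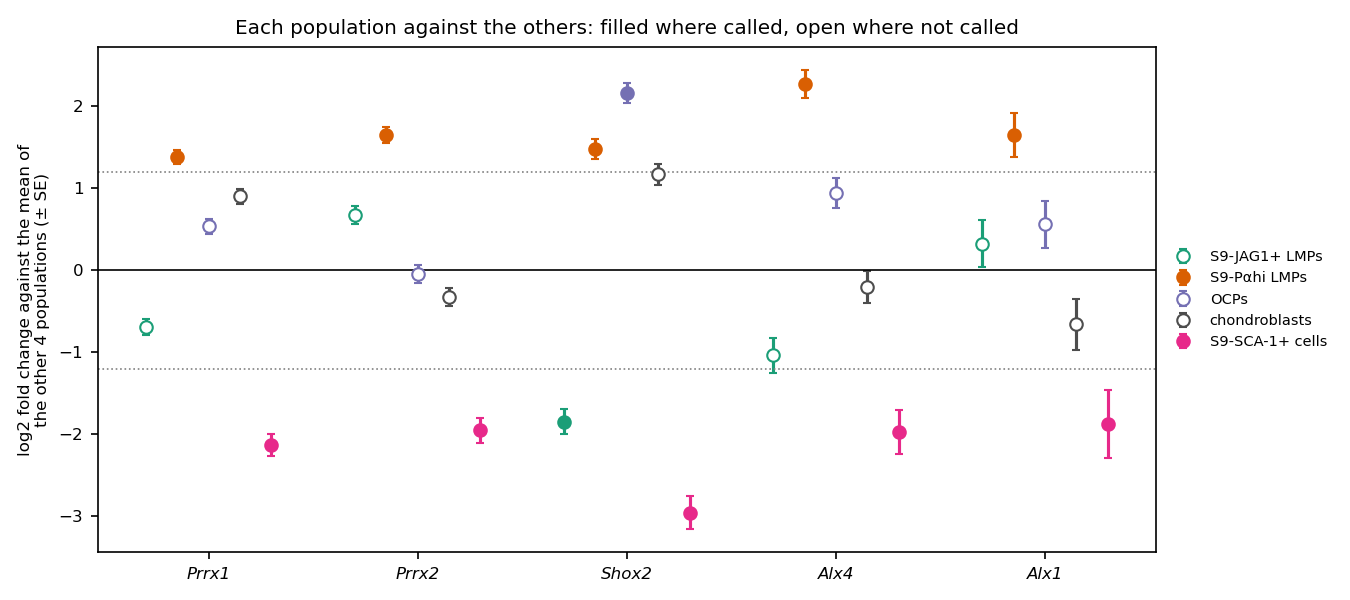
Log2 fold change of each population against the mean of the other 4 (y axis, ± SE) for the 5 genes (x axis); filled circles were called and open circles were not, and dotted lines mark 1.2 and -1.2. Filled circles stand above the line for S9-Pαhi LMPs and below it for S9-SCA-1+ cells in all 5 genes, and Shox2 has 2 more.

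Prrx1 was high in mesenchyme with high PDGFRα and lower in both other populations. It reached 1294, 1486 and 1303 CPM in the S9-Pαhi LMPs and 1007, 968 and 1157 CPM in chondroblasts. In OCPs it had 906, 747 and 898 CPM, and in S9-JAG1+ LMPs 469, 422 and 402 CPM. The 2 S9-SCA-1+ libraries had 223 and 164 CPM. All 5 populations were separate in this order, with no library of one overlapping the next. Prrx1 was 1.38 ± 0.0894 (log2 fold change ± SE, adjusted p = 2.91e-07) higher in S9-Pαhi LMPs than in the mean of the others and 2.13 ± 0.134 lower (log2 fold change -2.13, adjusted p = 2.52e-08) in S9-SCA-1+ cells. Chondroblasts and OCPs differed by less than the fold limit (OCPs minus chondroblasts -0.30 ± 0.121, adjusted p = 0.0855). S9-JAG1+ LMPs were called lower than chondroblasts (-1.28 ± 0.123, adjusted p = 9.9e-07; 15.2% of all genes were called lower). This call was lost at -1.16 without chondroblast replicate 3 and at -1.197 without S9-JAG1+ replicate 3.

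Prrx2 ranked the populations in another way, with S9-JAG1+ LMPs second. It had 310, 264 and 306 CPM in S9-Pαhi LMPs, 191, 161 and 160 CPM in S9-JAG1+ LMPs and 123, 119 and 103 CPM in OCPs. Chondroblasts had 107, 98.2 and 89.0 CPM and S9-SCA-1+ cells 48.4 and 31.3 CPM. OCPs and chondroblasts overlapped and did not pass the test (adjusted p = 0.246), while the other neighbours in the order were separate. Prrx2 was called higher in S9-Pαhi LMPs than in OCPs (1.35 ± 0.14, adjusted p = 2.82e-05; 1.36% of all genes) and than in chondroblasts (1.58 ± 0.141, adjusted p = 1.62e-06; 1.83% of all genes). The S9-JAG1+ LMPs exceeded OCPs by 0.57 ± 0.139 (adjusted p = 0.00482) and chondroblasts by 0.80 ± 0.139 (adjusted p = 0.000221), below the fold limit. They were called higher than S9-SCA-1+ cells (2.10 ± 0.169, adjusted p = 3.35e-07; 4.91% of all genes). Chondroblasts were called 1.30 ± 0.163 above S9-SCA-1+ cells (13.9% of all genes), which was lost at 1.02 without S9-SCA-1+ replicate 3.

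The ratio of Prrx1 to Prrx2 within a library separated the populations, although these 2 homeoboxes were the most alike. Levels of different genes were compared as CPM per kb, which divides by the deposited gene length (7448 bases for Prrx1, 1129 for Prrx2). The ratio was 0.372 to 0.397 in S9-JAG1+ LMPs, 0.634 to 0.853 in S9-Pαhi LMPs, 0.951 to 1.32 in OCPs and 1.43 to 1.97 in chondroblasts. In S9-SCA-1+ cells it was 0.700 and 0.794. No 2 of the 4 mesenchymal populations overlapped, and the S9-SCA-1+ libraries fell within the range of the S9-Pαhi LMPs. All 10 ratios of 2 members were tested with 100000 permutations of the libraries (two-sided by construction, as the statistic was the spread between population means). By this permutation test 9 ratios passed, among them Prrx1 to Prrx2 (p = 3e-05, adjusted p = 0.0001), and Alx1 to Prrx2 did not (p = 0.254). Ratios of other genes were not tested, so that the 9 of 10 cannot be set beside a share over all genes. A change in the length used moves a ratio by the same factor in every library. The ratio of Prrx2 to Shox2 ran from 0.392 in an OCP library to 7.01 in an S9-JAG1+ library. Its p in the same test was 1e-05, the smallest that 100000 permutations can give (adjusted p = 0.0001).

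**Figure D3:**
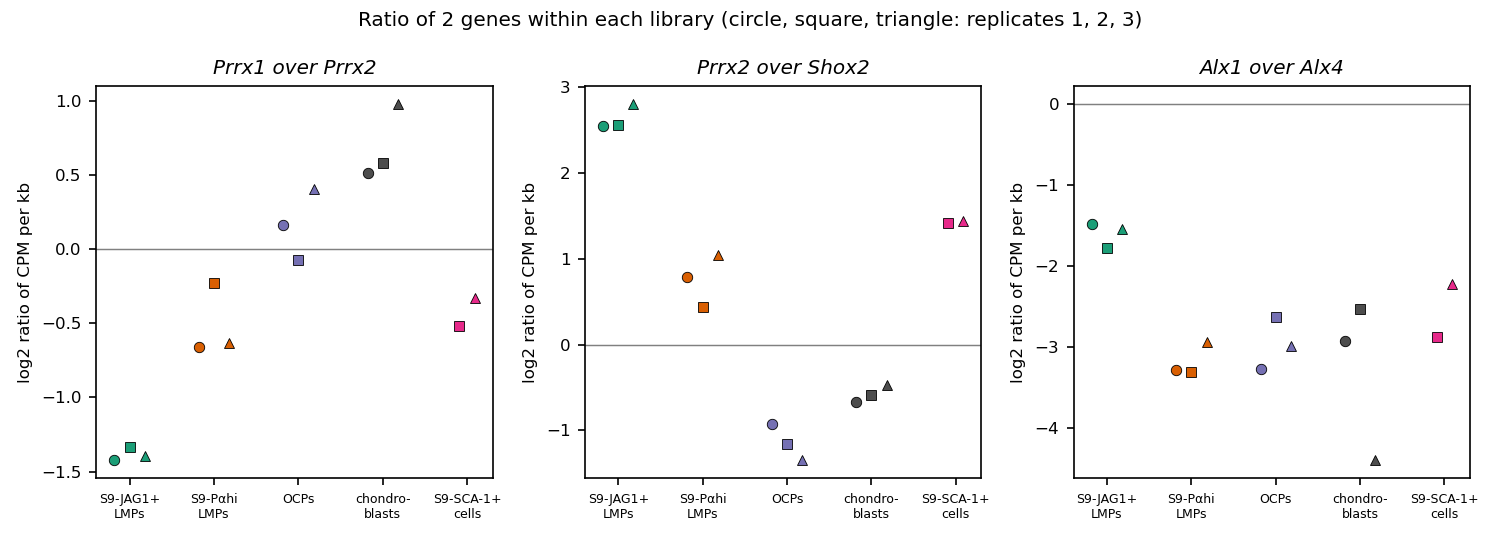
Log2 ratio of CPM per kb of 2 genes within each library (y axis) by population (x axis), with a line at equal levels and symbols for replicates. Prrx1 over Prrx2 runs from a mean of -1.38 in S9-JAG1+ LMPs to 0.69 in chondroblasts, Prrx2 over Shox2 is highest in S9-JAG1+ LMPs and lowest in OCPs, and Alx1 over Alx4 is highest in S9-JAG1+ LMPs with chondroblast replicate 3 apart.

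Shox2 had the widest range of the members, with a mean 17.1 times higher in OCPs than in S9-SCA-1+ cells. The OCP libraries had 675, 765 and 757 CPM, above all others. S9-Pαhi LMPs had 519, 562 and 427 CPM and chondroblasts 491, 426 and 356 CPM, which overlapped and did not pass the test (adjusted p = 0.25). S9-JAG1+ LMPs had 93.9, 78.8 and 65.9 CPM and S9-SCA-1+ cells 52.4 and 33.3 CPM. A wide gap thus lay between 3 populations with high PDGFRα and the other 2. Shox2 was called higher in OCPs than in the mean of the others (2.16 ± 0.122, adjusted p = 8e-08) and lower in S9-JAG1+ LMPs (-1.85 ± 0.155, adjusted p = 4.88e-07). In pairs, S9-JAG1+ LMPs were called lower than OCPs (-3.20 ± 0.184, adjusted p = 1.74e-08; 9.03% of all genes), S9-Pαhi LMPs (-2.66 ± 0.18; 4.42% of all genes) and chondroblasts (-2.42 ± 0.179). OCPs exceeded chondroblasts by 0.79 ± 0.17 (adjusted p = 0.00405) and S9-Pαhi LMPs by 0.54 ± 0.169 (adjusted p = 0.0497), below the fold limit. The chondroblasts stood at 1.17 ± 0.127 above the mean of the others, just under the limit. They passed it without chondroblast replicate 3 (1.25), without S9-JAG1+ replicate 1 (1.21), without S9-SCA-1+ replicate 2 (1.26) and with unscaled library totals (1.28).

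Alx4 was concentrated in S9-Pαhi LMPs, at 230, 235 and 218 CPM. OCPs had 130, 86.1 and 112 CPM, and chondroblasts 72.6, 52.3 and 48.5 CPM. In S9-JAG1+ LMPs 50.3, 34.2 and 24.6 CPM were measured and in S9-SCA-1+ cells 26.9 and 16.3 CPM. S9-Pαhi LMPs, OCPs and chondroblasts were separate from each other, whereas the lower levels overlapped. Alx4 showed the largest difference of the members in S9-Pαhi LMPs (2.27 ± 0.172 against the mean of the others, adjusted p = 1.05e-06). S9-Pαhi LMPs were called above S9-JAG1+ LMPs (S9-JAG1+ minus S9-Pαhi -2.65 ± 0.254, adjusted p = 4.85e-06) and above chondroblasts (1.98 ± 0.246, adjusted p = 2.84e-05). Against OCPs the difference of 1.06 ± 0.24 (adjusted p = 0.0101) stayed under the fold limit and reached 1.203 without OCP replicate 1, which made it a call. S9-JAG1+ LMPs were called lower than OCPs (-1.59 ± 0.246, adjusted p = 0.00016). Against the mean of the others they stood at -1.04 ± 0.208, which became a call at -1.35 without S9-JAG1+ replicate 1. The call of chondroblasts above S9-SCA-1+ cells (1.42 ± 0.286, adjusted p = 0.000801) was lost at 1.10 without S9-SCA-1+ replicate 3.

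Alx1 was the scarcest member, and its spread between replicates was wide in S9-JAG1+ LMPs and chondroblasts (SD of 42.5% and 58.2% of the mean) and narrow in OCPs and S9-SCA-1+ cells (2.41% and 3.1%). The narrow values are smaller than counting noise at 140 to 187 counts in OCPs and 50 and 47 in S9-SCA-1+ cells. They thus do not measure how steady Alx1 is there. Alx1 had 11.4, 11.4 and 13.6 CPM in S9-Pαhi LMPs and 6.45, 6.66 and 6.76 CPM in OCPs. S9-JAG1+ LMPs had 8.65, 4.78 and 4.04 CPM and chondroblasts 4.57, 4.35 and 1.10 CPM. The S9-SCA-1+ libraries had 1.75 and 1.67 CPM, from 50 and 47 counts. The S9-Pαhi LMPs lay above all other libraries, and the rest overlapped except OCPs with chondroblasts and with S9-SCA-1+ cells and S9-JAG1+ LMPs with S9-SCA-1+ cells. Alx1 was called higher in S9-Pαhi LMPs than in the mean of the others (1.65 ± 0.268, adjusted p = 0.000885) and than in chondroblasts (1.84 ± 0.37, adjusted p = 0.00112). S9-SCA-1+ cells were called lower than S9-JAG1+ LMPs (S9-JAG1+ minus S9-SCA-1+ 1.76 ± 0.458, adjusted p = 0.0108). S9-Pαhi LMPs and OCPs did not pass the test (0.87 ± 0.356, adjusted p = 0.124), nor did OCPs and S9-JAG1+ LMPs (adjusted p = 0.71). Single libraries decided several values: S9-JAG1+ minus S9-Pαhi became a call at -1.45 without S9-JAG1+ replicate 1, and chondroblasts minus S9-SCA-1+ at 1.35 without chondroblast replicate 3. OCPs minus chondroblasts, 0.97 ± 0.372, became a call at 1.28 without chondroblast replicate 1 and at 1.22 without replicate 2. The ratio of Alx1 to Alx4 per kb was 0.292 to 0.359 in S9-JAG1+ LMPs and 0.101 to 0.214 in the other libraries except chondroblast replicate 3, which had 0.0473 (p = 0.0152, adjusted p = 0.0168, permutation test).

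Across the 10 pairs of populations, 27 of 50 differences of the members were called (11.8% over all genes), 6 each for Alx4, Prrx2 and Shox2, 5 for Prrx1 and 4 for Alx1. In OCPs against S9-SCA-1+ cells 5 of 5 were called higher (8.03% of all genes), and likewise in S9-Pαhi LMPs against S9-SCA-1+ cells (5.58% of all genes). Between OCPs and chondroblasts no member was called (7.77% of all genes in either direction), while 4 passed on the adjusted p alone, as 34.8% of all tested genes did. On the adjusted p alone, 46 of the 50 passed, beside 42.5% over all genes. Over the orders of the 5 genes, 4 of 20 neighbouring levels had an adjusted p above 0.1 and 2 of 20 were called. The called ones were Shox2 between chondroblasts and S9-JAG1+ LMPs and Prrx2 between chondroblasts and S9-SCA-1+ cells. Pairs share libraries and are not independent of each other.

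Which member led depended on the population. Per kb, Prrx2 was first in S9-JAG1+ LMPs at a mean of 151 CPM per kb, ahead of Prrx1 at 57.8 and Shox2 at 24.4. In S9-Pαhi LMPs Prrx2 had 260, Prrx1 183 and Shox2 154 CPM per kb. In OCPs Shox2 came first at 225 CPM per kb, ahead of Prrx1 at 114 and Prrx2 at 102. Chondroblasts had 140 CPM per kb of Prrx1, 130 of Shox2 and 86.9 of Prrx2, and S9-SCA-1+ cells 35.3 of Prrx2, 26.0 of Prrx1 and 13.1 of Shox2. Alx4 (4.15 to 43.8 CPM per kb) and Alx1 (0.687 to 4.85 CPM per kb) stayed below these 3 in all populations. These orders rest on the deposited lengths, so that a shorter transcript in use would change them.

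Of the other 31 genes of the paired class listed, 15 could be tested, 12 had a mean of at least 1 CPM in some population and 19 had none. Gsc, the goosecoid gene, was highest in OCPs as Shox2 was, with 64.4, 82.0 and 62.9 CPM, and was called there (2.78 ± 0.151, adjusted p = 5.82e-08). It had 25.4 to 37.1 CPM in S9-Pαhi LMPs, 29.8 to 37.7 in chondroblasts, 4.76 to 9.89 in S9-JAG1+ LMPs and 1.26 and 1.32 in S9-SCA-1+ cells. Other genes of the class had the reverse pattern. Pax3, which marks migrating muscle precursors, had 428 and 498 CPM in the 2 S9-SCA-1+ libraries and no more than 1.39 CPM in the others. Pax7, Pitx3 and Uncx, at 6.09 to 8.57 CPM, were also called higher there. Of the 15, 5 in all were called higher in the S9-SCA-1+ population (4.46% of all genes) and 4 lower, with a median log2 fold change of 0.153, beside 5 of 5 members lower. In S9-Pαhi LMPs 3 of the 15 were called higher and 2 lower, with a median of 0.0485. Rax was called higher in chondroblasts, at 2.12 to 2.50 CPM. Duxbl1, which has near-identical copies, was called higher in OCPs (5.52 to 15.8 CPM), while Pax6 (mean 1.82 to 2.97 CPM) and Phox2a (0.569 to 1.21 CPM) were low in every population.

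**Figure D4:**
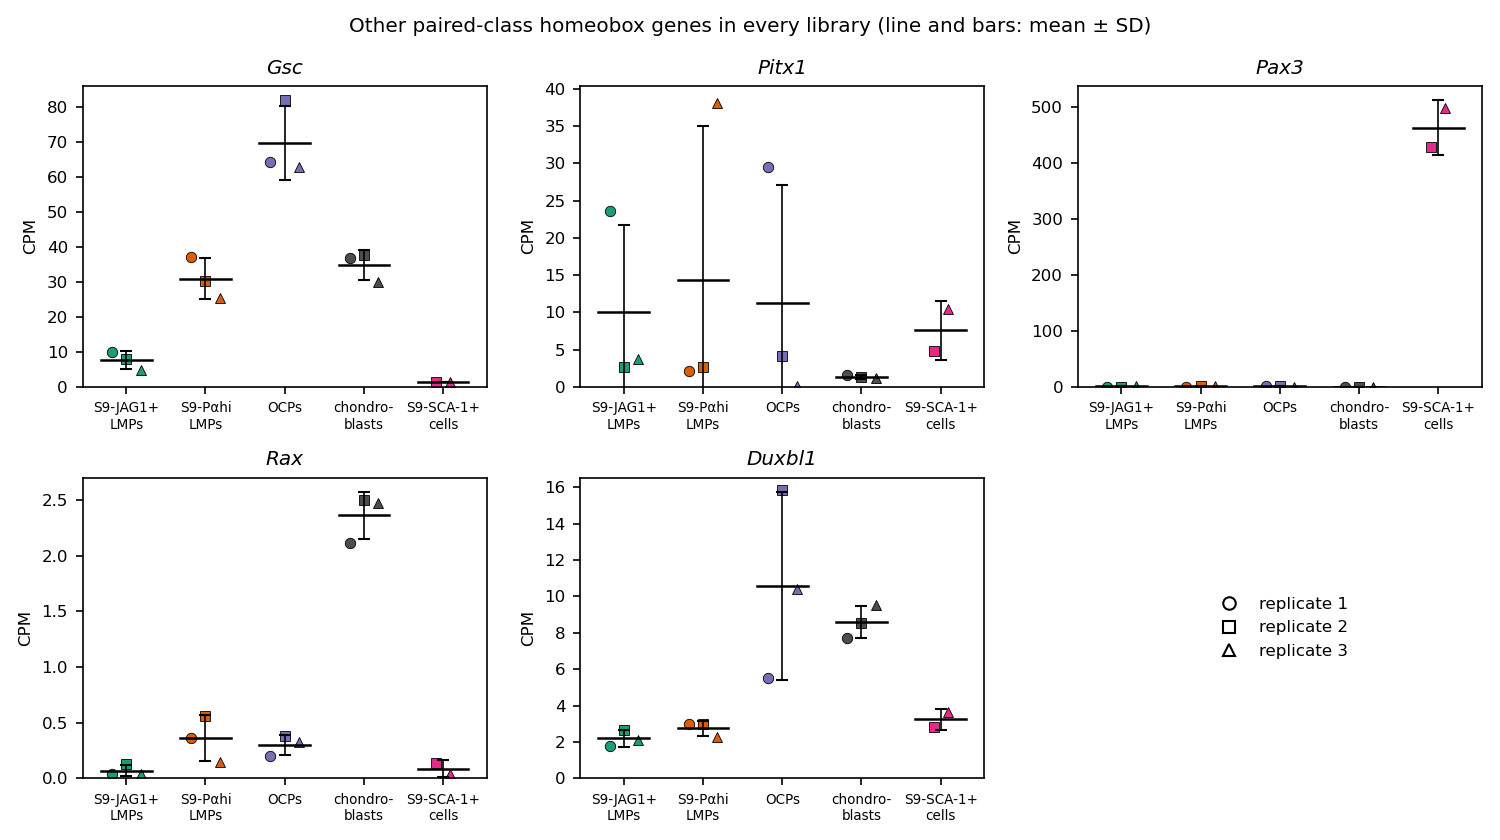
Level of Gsc, Pitx1, Pax3, Rax and Duxbl1 (y axis, CPM, from 0) in each of the 14 libraries by population (x axis); symbols are replicates, lines and bars mean ± SD. Gsc and Duxbl1 have their highest means in OCPs, Pax3 in S9-SCA-1+ cells and Rax in chondroblasts, and Pitx1 exceeds 20 CPM in 1 library each of S9-JAG1+ LMPs, S9-Pαhi LMPs and OCPs.

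Pitx1, a hindlimb gene, varied within populations: it had 29.5 CPM in OCP replicate 1 and 0.0723 in OCP replicate 3, 38.2 in S9-Pαhi replicate 3, and 23.6 in S9-JAG1+ replicate 1. Without these 3 libraries with over 20 CPM, 5 of 5 members were again called higher in S9-Pαhi LMPs and lower in S9-SCA-1+ cells. Calls over all genes were counted for this setting only as a sum over the comparisons with the other populations, which went from 6562 to 6738. The share in each of these comparisons alone was not counted. Alx4 then also became called lower in S9-JAG1+ LMPs (-1.31 ± 0.21, adjusted p = 0.000373). Its difference between S9-Pαhi LMPs and OCPs became a call at 1.25, and that of Alx1 between S9-JAG1+ and S9-Pαhi LMPs a call at -1.37.

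Some single libraries of S9-JAG1+ LMPs and S9-SCA-1+ cells moved together for the members. In S9-Pαhi LMPs and OCPs they did not: each library there lay above its population mean for 2 to 4 members and below it for the rest. S9-JAG1+ replicate 1 lay above the population mean for 5 of 5 members (log2 deviations of 0.125 to 0.64), and replicate 3 lay below it for 5 of 5 (-0.499 to -0.0886). The deviations were largest for Alx1 and Alx4. The listed axis genes were uneven in these libraries. Of the proximal genes, Meis1, Meis2 and Emx2 were among those highest in replicate 1 and lowest in replicate 3 as the members were, with Meis2 at 45.0, 24.0 and 15.2 CPM, whereas Tbx15 (251, 327 and 345 CPM) and Tbx18 (23.9, 27.3 and 27.8 CPM) were lowest in replicate 1. The 6 proximal genes summed to nearly the same level, 487, 492 and 486 CPM, so that the list as a whole did not move with the members. Of the anterior genes, Irx3 (37.0, 21.8 and 9.51 CPM) and Irx5 went with the members and Pax1 (6.42, 19.2 and 10.7 CPM) did not, and the 6 summed to 474, 459 and 461 CPM. Hoxd13, a distal and posterior gene, had 800, 965 and 1212 CPM and was thus lowest in replicate 1. In chondroblasts replicate 3 was lowest for Alx1, Alx4, Shox2 and Prrx2 and highest for Prrx1. There Meis2 had 115, 86.6 and 15.8 CPM and Irx3 79.7, 50.4 and 5.58 CPM, while Tbx15 (553, 513 and 625 CPM) was highest in replicate 3. The proximal sums in chondroblasts were 1362, 1244 and 1160 CPM and the anterior sums 435, 419 and 364 CPM. S9-SCA-1+ replicate 2 exceeded replicate 3 for 5 of 5 members, as it did for Pdgfra (44.8 against 24.0 CPM), and replicate 3 also held the red blood cell RNA. The part of these genes in the members' values was not tested.

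**Figure D5:**
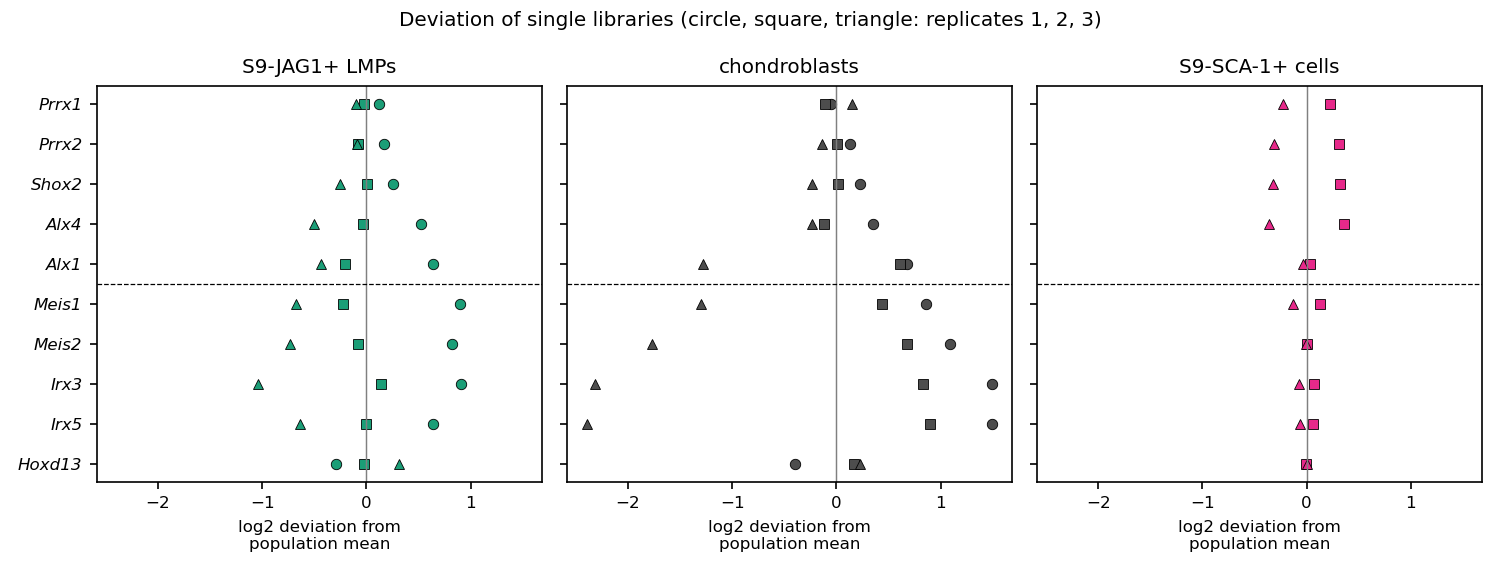
Log2 deviation of single libraries from their population mean (x axis, same scale in each panel; 0.1 CPM added) for the 5 members, above the dashed line, and for Meis1, Meis2, Irx3, Irx5 and Hoxd13, picked from the axis lists after their values were seen, below it, in S9-JAG1+ LMPs, chondroblasts and S9-SCA-1+ cells. S9-JAG1+ replicate 1 (circles) lies to the right for all plotted genes except Hoxd13, and chondroblast replicate 3 (triangles) lies to the left for all except Prrx1 and Hoxd13.

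Genes of the limb axes gave the setting in which the members differed. In S9-Pαhi LMPs 4 of 6 anterior genes other than the members were called higher (median log2 fold change 1.30), led by Pax1 at 42.4 to 112 CPM, beside 2 of 6 proximal genes (1.15) and 1 of 8 posterior genes (0.434). In OCPs, where Shox2 was highest, 6 of 6 proximal genes were called higher (1.94), such as Emx2 at 48.8 to 51.1 CPM and Tbx18 at 261 to 316 CPM, with 2 of 6 anterior genes higher and 2 lower (0.681). In S9-JAG1+ LMPs 7 of 8 posterior genes were called higher (2.44; 2.88% of all genes), led by Shh at 54.2 to 74.3 CPM, and 5 of 6 proximal genes lower (-2.09). In chondroblasts 12 of 14 cartilage genes were called higher (2.89; 11% of all genes). In S9-SCA-1+ cells 5 of 6 anterior (-1.93), 5 of 8 posterior (-2.58) and 3 of 6 proximal genes (-2.07) were called lower, with 8 of 8 myoblast genes higher (7.35), of which Pax3 and Pax7 are also in the paired class. The medians over all tested genes lay between -0.013 and 0.046. The lists were written with earlier results known. Alx4 and Shox2 were among genes that the study itself selected on these libraries, so their direction here is not independent of it. The study names Shox2 among the regulators high in chondroblasts, from a map of expression above or below the average. With S9-SCA-1+ cells left out, chondroblasts stood 0.46 ± 0.135 above the mean of the other 3 populations. This was below the fold limit (adjusted p = 0.00991, edgeR quasi-likelihood test). They were not the highest population: the mean was 424 CPM in chondroblasts, 503 CPM in S9-Pαhi LMPs and 732 CPM in OCPs.

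For each member, the 5 genes with the most similar profile were found as those with the smallest root-mean-square difference of centred log2 CPM over the 14 libraries. This is a description of shared libraries and depth, and carries no test. Prrx2 was closest to Lhx9, a LIM homeobox gene of limb mesenchyme (0.238), with Twist1 (0.304), Slc6a17 (0.344) and Ptpru (0.346) also among its 5 nearest. Its nearest sequence relative Prrx1 stood at 0.739, at rank 324 of 15124 genes. Prrx1 was closest to Fbln5, a gene of elastic fibres (0.273), Abca4 (0.279), Hecw2 (0.306), Tns3 (0.33) and Col1a2 of type I collagen (0.341). Alx4 was closest to Cdo1 (0.295), Ednra, an endothelin receptor (0.351), Emilin2 (0.445), Cntfr (0.48) and Dlk1 (0.502). Shox2 was nearest to Lhfp (0.385), Synpo (0.394), Col23a1 (0.45), Tbx18 (0.48) and Thbs2 (0.481), with Gsc at rank 21 (0.56). Alx1 was nearest to Twist1 and Prrt4 (both 0.476), Tmem132c (0.516), Ubl4b (0.519) and Dmrta1 (0.526). Between members the difference ranged from 0.564, for Alx1 and Prrx2, to 1.40, for Prrx2 and Shox2. Without the S9-SCA-1+ libraries, 3 of the 5 nearest genes stayed for Alx1 and for Prrx2, 2 for Alx4 and 0 for Prrx1 and for Shox2.

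The nearest annotated protein-coding genes along the chromosome mostly differed less than the members. Of the 10 neighbours 9 could be tested, and 6 of these were called in none of the 5 comparisons with the other 4 populations. They were Rassf9 and Lrriq1 beside Alx1, Ext2 beside Alx4, Gorab beside Prrx1, Asb6 beside Prrx2 and Mlf1 beside Shox2. Over all tested genes 8.68% of such differences were called, and the share of genes called in none was not counted. Lrriq1 had means of only 0.177 to 0.42 CPM, near the floor of 0.101 to 0.149 CPM, where a call is hard to reach. Ext2, an enzyme gene of heparan sulphate synthesis, had means of 60.9 to 82.2 CPM, and Mlf1 of 4.36 to 8.35 CPM. Ptges beside Prrx2 was called once, with 5.10 CPM in S9-SCA-1+ cells and 11.4 to 14.9 CPM elsewhere. Cd82 beside Alx4 was called in 3, with 3.83 CPM in S9-Pαhi LMPs and its highest mean, 8.33 CPM, in chondroblasts. Veph1, 674748 bases from Shox2, was called in 4, with 4.51 CPM in OCPs and 5.28 in chondroblasts against 0.854 in S9-Pαhi LMPs and less in the other 2. Rsrc1, whose exons overlap Shox2, had 69.3 to 108 CPM over all libraries.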

How the data were processed

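Counts of reads per gene in 14 poly(A) RNA-seq libraries were deposited by the authors, as whole numbers without normalization and with an Entrez identifier and a length in bases for each gene. Per the methods of the study, single-end reads were aligned with STAR to mm10, with 1 hit kept for reads that fit several places, and reads starting in an exon of a RefSeq mRNA were counted with QuasR. The use of strand is not given in the sources used here. Symbols, positions and transcripts came from RefSeq and GENCODE tables of GRCm38 (mm10), which matched 24374 of the 24454 identifiers. The other 80 held 0.358% of the counts.

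Genes were kept with filterByExpr of edgeR 4.0.16 (R 4.3.3) by population, totals were scaled by TMM, and a model with 1 mean for each of 5 populations was fitted to 14 libraries with a quasi-likelihood F test. Contrasts set each population against the average of the other 4, and all pairs against each other. Benjamini-Hochberg adjustment ran over 15125 genes, and the limits for a call are those given in the text. The SE of a log2 fold change is its size over the square root of F. The labels number the samples, and the study calls them biological replicates. Replicates of a population differed by more than counting noise (chi-square per degree of freedom of 7.8 to 76.3 in 13 pairs). Log2 CPM had 2 as prior count. Named were the 5 members, at most 4 genes of a list, paired-class genes of at least 1 CPM, the 5 nearest profiles and the flanking genes. The members and lists were chosen with earlier results of these data known, and the count by population, the ratios, the comparisons without a population and the alternative without 3 libraries were added after the counts were seen. Some genes that these rules name are not reported here. The procedure was tested on simulated data. Alternatives were other scalings, filters, tests and limits, thinned counts, replicate numbers in the model and each library left out in turn. DESeq2 1.42.0 served as another test.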

Additional observations from a re-analysis of the deposited data

How the results depend on the processing

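Calls of the members were recomputed under 26 settings, and no called value changed sign. With no limit on the fold change, 21 of 25 differences from the other populations and 46 of 50 differences between pairs were called (Alx1 8, Alx4 10 and Prrx1 10 pairs), with 4 members called in S9-JAG1+ LMPs, 3 in OCPs and 4 in chondroblasts. A limit of 1 gave 2 members in S9-JAG1+ LMPs and 1 in chondroblasts, and unscaled totals gave 1 in chondroblasts. Calls over all genes in the comparisons with the other populations moved too, from 6562 to 8225 with a limit of 1, to 6776 with unscaled totals and to 31079 with no limit. With S9-SCA-1+ cells left out of the average, 3 members were called in S9-JAG1+ LMPs, 3 in S9-Pαhi LMPs and 1 in chondroblasts (Alx1, at the limit with -1.201). Without the 3 libraries with over 20 CPM of Pitx1, 2 members were called in S9-JAG1+ LMPs, where calls over all genes and populations numbered 6738. Alx1 in S9-JAG1+ LMPs against the others, not called in any case, went from 0.33 to -0.046.

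Each library was left out in turn, and a population left with 1 library was assumed to vary like the others. The numbers then ranged from 12 to 14 against the other populations and from 25 to 29 in pairs, with 4 to 5 for Alx1, 5 to 7 for Alx4, 4 to 6 for Prrx1, 5 to 6 for Prrx2 and 6 to 7 for Shox2. They ranged from 1 to 2 members in S9-JAG1+ LMPs and from 0 to 1 in chondroblasts, and stayed at 5 in S9-Pαhi LMPs and S9-SCA-1+ cells and at 1 in OCPs. Values that were not called crossed 0 for Alx1 in S9-JAG1+ LMPs against the others (-0.073 to 0.54) and against OCPs (-0.59 to 0.030), and for Prrx2 in OCPs (-0.11 to 0.045).

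The replicate numbers did not pair the samples (correlations of deviations of -0.181 to 0.308 in 26 same-numbered pairs, 4 over 0.1). With the replicate block 12 of 25 differences from the other populations and 27 of 50 between pairs were called, as without it. Libraries of different populations could still share deviations. The largest correlation, 0.413, joined OCP replicate 1 and S9-Pαhi replicate 3, which have different numbers. S9-JAG1+ replicate 1 had 0.308 with the former and 0.247 with the latter. These are the 3 libraries with over 20 CPM of Pitx1, and the replicate block does not model what they share. The cause of these correlations and of the changes between settings was not tested. At these depths Alx1, with 28 counts in 1 library, was the member with the fewest reads, and 2 libraries limit the S9-SCA-1+ cells.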
